A study of Rattus rattus with 18 samples.

Results

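The 107 genes described here were at most 0.5 times as abundant in the arcuate nucleus of rats infused with a miR-211 mimic as in rats infused with a hairpin inhibitor of the same microRNA. They were chosen on the read counts of those 8 libraries, as CPM (counts per 1000000 counts assigned to genes). A gene was kept when its mean in the inhibitor group was 10 CPM or more, its mean in the mimic group was at most 0.5 of that, and every mimic library lay below every inhibitor library. Of 8095 genes at or over the 10 CPM floor, out of 32883 counted, 118 (1.46%) met these criteria. A set of 18 further genes, among them *Nr4a1*, *Junb*, *Hmox1* and *Timp1*, was left out by name, and 11 of these were among the 118. Because the mimic and inhibitor libraries chose the genes, their values there are given as a description with no test. A name was available for 86 of the 107 genes, and the other 21 are known by their Ensembl identifier only.

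All animals were female Wistar rats (strain code WSH in the labels) and every library was made from the punched arcuate nucleus of 1 rat by bulk MARS-seq, which sequences the 3′ ends of polyadenylated RNA. In the infusion experiment, chow-fed adult rats with a guide cannula in the third ventricle were fasted overnight, received the MiRIDIAN hsa-miR-211 mimic (4 rats) or the matching hairpin inhibitor (4 rats) in a lipid carrier at the start of the dark phase, and were killed 6 h later with chow available. All 8 rats of this contrast therefore carried a cannula and an infused oligonucleotide, and no negative-control infusion is analysed here, so a lower level after the mimic and a higher level after the inhibitor cannot be told apart by this contrast alone. Uninjected rats came from the diet-induced obesity (DIO) experiment, in which females raised on chow or on a 60% fat diet lived for 4 weeks in single cages. These were chow sedentary (CS, 3 rats), high-fat sedentary (HFS, 3 rats) and high-fat running with a wheel (HFR, 4 rats).

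MicroRNAs guide Argonaute to partly matching sites in messenger RNAs and lower their stability and translation, so that a direct target is lower when the microRNA is supplied and higher when it is blocked. Many of the named genes belong to the acute inflammatory response, in which danger signals and cytokines activate nuclear factor kappa B (NF-kB) and AP-1, and these factors drive chemokines, adhesion molecules and the proteins that later shut the response down. In the hypothalamus this programme is run by microglia, astrocytes, endothelium and leukocytes that enter from blood, and its signals meet the arcuate neurons that control feeding.

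Counts assigned to genes ranged from 1275263 to 3318751 in the mimic libraries, from 1559206 to 6615927 in the inhibitor libraries and from 4680736 to 7494207 in the DIO libraries, and no pair of libraries was identical. One count was worth 0.30 to 0.78 CPM in the mimic group, so that low values there rest on few reads. *Pomc*, the precursor of melanocortin peptides in arcuate neurons, was detected in every library, between 51.3 and 1053 CPM. Mature miR-211 itself was not measured in these libraries, and delivery of the mimic or inhibitor cannot be checked from them. CS replicate 2 and HFS replicate 2 matched none of the per-library columns in the study's supplementary table, so the main values of the DIO comparisons are also given without these 2 libraries.

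The summed level of the 107 genes separated the infused groups and varied widely within the inhibitor group. It was 6275 CPM, 12885 CPM, 6641 CPM and 9087 CPM in inhibitor replicates 1 to 4 and 2466 CPM, 2668 CPM, 2184 CPM and 3087 CPM in mimic replicates 1 to 4. In the uninjected libraries the sum lay between 1170 CPM and 1868 CPM, below all infused libraries. Per gene, the inhibitor mean was 2.05 to 31.5 times the mimic mean, with a median of 3.08 times. For 57 genes this ratio was 3 or more, for 26 it was 5 or more and for 11 it was 10 or more. In bulk tissue, fewer cells of a type and less RNA per cell cannot be told apart.

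**Figure D1:**
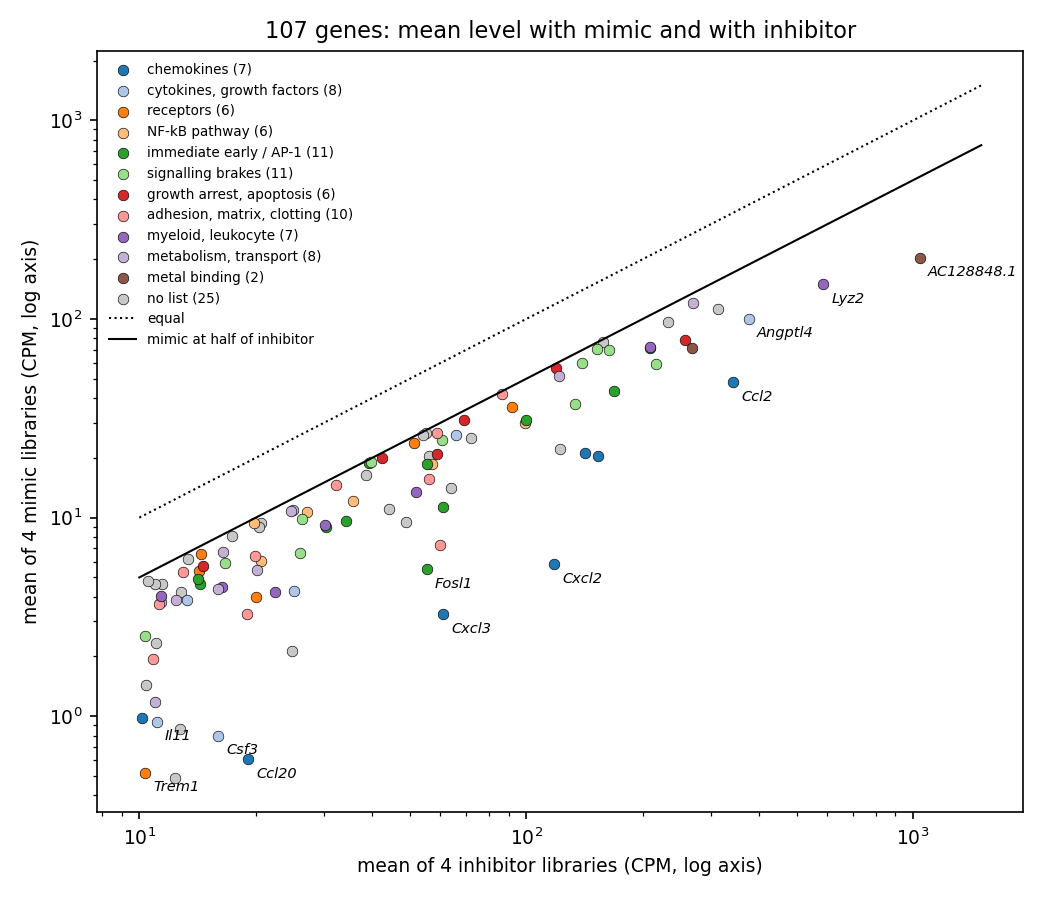
Mean level of each of the 107 genes in the inhibitor group (x axis, CPM, log scale) against the mimic group (y axis, CPM, log scale), 1 point per gene and coloured by functional list, with lines at equal level and at 0.5 times the inhibitor level. All points lie below the lower line because the selection required it. The genes of the chemokine list, which includes the receptor *Ccrl2*, lie farthest from it, with a median ratio of 10.3.

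The genes nearest to the thresholds show how the selection was bounded. Just inside the floor were *Ccrl2* (10.1 CPM in the inhibitor group), *Trem1* (10.3 CPM) and *Map3k6* (10.4 CPM), and just outside it were *Tnfrsf1b* (9.76 CPM), ENSRNOG00000016378 (9.76 CPM) and ENSRNOG00000020811 (9.70 CPM). For the fraction of the inhibitor mean left in the mimic group, ENSRNOG00000003977 (0.487), ENSRNOG00000019141 (0.484) and the transcription factor *Klf4* (0.483) lay inside, and ENSRNOG00000033215 (0.5), *Ca4* (0.506) and ENSRNOG00000003917 (0.506) lay outside. The lowest inhibitor library was 1.002 times the highest mimic library for *Pstpip1*, 1.01 times for *Ripk1* and 1.01 times for *Pla1a*, and 1.00, 0.991 and 0.984 times for the excluded *Egr1*, *Prrx2* and ENSRNOG00000017416. Failing 1 criterion only, 123 genes were under the floor, 224 were above the 0.5 limit and 82 had overlapping libraries.

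Chemokines are secreted proteins that draw leukocytes towards their source. Their list, which also holds the receptor *Ccrl2*, had the highest median ratio of any list (10.3), with 7 genes between 6.68 and 31.5 times. This median was the ratio of *Ccrl2* itself. *Ccl2*, the main attractant of monocytes, was at 309.77, 751, 164 and 145 CPM in inhibitor replicates 1 to 4 and at 77.7, 34.7, 17.8 and 62.7 CPM in mimic replicates 1 to 4. The inhibitor mean was 7.09 times the mimic mean, and inhibitor replicate 2 stood far above the other 3. *Cxcl1*, which attracts neutrophils through the receptor Cxcr2, was at 93.6, 231, 106 and 182 CPM after the inhibitor and 12.3, 31.9, 23.97 and 13.3 CPM after the mimic (7.51 times). Its relatives *Cxcl2* and *Cxcl3* act on the same receptor and had larger ratios. *Cxcl2* was at 12.8, 160.26, 77.4 and 222 CPM after the inhibitor and 4.82, 7.98, 7.44 and 3.14 CPM after the mimic (20.2 times). *Cxcl3* was at 19.2, 53.4, 14.5 and 157 CPM and 1.51, 2.82, 2.48 and 6.27 CPM in the same order (18.7 times). For both, inhibitor replicate 4 was the highest library, and replicate 1 was among the 2 lowest of its group.

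*Ccl3*, macrophage inflammatory protein 1 alpha, was more even across the inhibitor group, at 104, 203, 107 and 153 CPM, against 36.2, 10.3, 7.03 and 31.4 CPM after the mimic (6.68 times). *Ccl20*, the ligand of Ccr6 on dendritic cells and T helper 17 cells, had the largest ratio of all 107 genes (31.5 times). It was at 3.85, 48.2, 8.49 and 15.9 CPM in the inhibitor libraries and 0.30, 0.47, 1.65 and 0 CPM in the mimic libraries, so replicate 2 alone supplied most of its inhibitor mean and the mimic values are a few reads. *Ccrl2*, an atypical receptor that concentrates chemerin at the cell surface, was at 6.41, 19.6, 5.99 and 8.62 CPM against 0.90, 1.41, 0.83 and 0.78 CPM (10.3 times).

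Cytokines and growth factors gave 8 genes with ratios from 2.27 to 19.97 times and a median of 3.60. *Csf3*, granulocyte colony-stimulating factor, was at 3.85, 20.5, 9.99 and 29.5 CPM after the inhibitor and 0.90, 1.88, 0.41 and 0 CPM after the mimic (19.97 times). *Il11*, a cytokine of the interleukin 6 family, was at 24.4, 8.59, 5.49 and 5.89 CPM and 0.30, 1.88, 0 and 1.57 CPM (11.8 times), and *Hbegf*, a membrane-bound ligand of the epidermal growth factor receptor, at 62.2, 20.99, 9.49 and 8.01 CPM and 5.12, 4.69, 3.31 and 3.92 CPM (5.91 times). The order of the inhibitor libraries differed among these 3 genes: replicate 1 was the highest for *Il11* and *Hbegf* and the lowest for *Csf3*. *Angptl4*, a secreted inhibitor of lipoprotein lipase, was at 194, 633, 298 and 376 CPM against 69.6, 141, 77.7 and 113 CPM (3.74 times). *Lrg1*, an acute-phase glycoprotein made by endothelium and neutrophils, was at 38.5, 82.99, 45.9 and 95.2 CPM against 30.4, 23.5, 21.5 and 29.01 CPM (2.52 times). *Angpt2*, which destabilises vessels by opposing angiopoietin 1, the vasodilator peptide *Adm* and the growth factor *Fgf2* had ratios of 3.03, 3.45 and 2.27 times.

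Receptors for cytokines and immune signals were 6 genes with ratios between 2.16 and 19.9 times and a median of 2.60. *Trem1*, which amplifies inflammatory signalling on neutrophils and monocytes, had the largest ratio of this list (19.9 times). It was at 1.92, 16.2, 7.49 and 15.7 CPM in the inhibitor group and 0, 0.47, 0.83 and 0.78 CPM in the mimic group, with inhibitor replicate 1 far below replicates 2 and 4. *Pvr*, the nectin-like adhesion receptor CD155, had replicate 1 as its highest library instead, at 39.8, 21.5, 6.99 and 11.9 CPM against 4.22, 2.82, 4.96 and 3.92 CPM (5.04 times). The sphingosine 1-phosphate receptor *S1pr3* was at 85.3, 128, 80.9 and 74.2 CPM against 27.7, 38.5, 22.3 and 55.7 CPM (2.55 times). The interleukin 17 receptor chain *Il17ra* was at 37.2, 65.8, 44.4 and 57.7 CPM against 25.6, 17.8, 28.1 and 23.5 CPM (2.16 times). The high-affinity IgG receptor *Fcgr1a* (2.20 times) and *Rell1*, a relative of the tumour necrosis factor receptor family member RELT (2.66 times), completed the list.

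NF-kB pathway genes were 6, with a narrow range of ratios from 2.12 to 3.42 times. *Sbno2*, a transcriptional co-regulator induced by interleukin 10, was at 61.6, 146, 61.9 and 128 CPM against 22.9, 36.6, 17.8 and 43.1 CPM (3.31 times). *Nfkb2*, the precursor of the p52 subunit, was at 46.8, 98.2, 36.5 and 47.3 CPM against 21.4, 18.8, 13.6 and 20.4 CPM (3.08 times). *Nfkbiz*, a nuclear inhibitor-like co-factor that NF-kB itself induces, was at 10.9, 25.8, 17.5 and 28.3 CPM against 7.23, 5.63, 4.96 and 6.27 CPM (3.42 times). In each of the 6 genes inhibitor replicates 2 and 4 both exceeded replicates 1 and 3. *Arid5a*, which stabilises interleukin 6 mRNA, was at 15.4, 57.7, 30.5 and 39.3 CPM against 12.1, 11.7, 12.4 and 12.6 CPM, and the latter 4 libraries lay within 1 CPM of each other. The kinases *Ripk1* and *Ripk3*, which pass on death receptor signals, had ratios of 2.12 and 2.54 times.

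Immediate early and AP-1 transcription factors, the first genes transcribed after a stimulus, were 11 with ratios from 2.07 to 10.1 times. *Fos* was at 184, 265, 132 and 254 CPM in the inhibitor group and 61.5, 93.4, 52.5 and 79.98 CPM in the mimic group (2.91 times). *Fosl1*, which encodes the Fos relative Fra-1, had the largest ratio of the list (10.1 times), at 136, 38.6, 19.97 and 26.4 CPM against 3.31, 2.82, 2.48 and 13.3 CPM. Inhibitor replicate 1 was 3.52 times the next highest library for *Fosl1*, and mimic replicate 4 stood above the other mimic libraries. *Id2*, an inhibitor of helix-loop-helix factors, was at 162, 206, 191 and 114 CPM against 77.4, 23, 23.97 and 50.2 CPM (3.85 times), and *Ier3*, a stress-induced survival gene, at 73.1, 143, 76.4 and 107 CPM against 22, 45.5, 33.1 and 23.5 CPM (3.22 times). *Csrnp1* (5.40 times), *Maff* (3.57 times), *Atf3* (3.37 times), *Myc* (2.98 times), *Hlx* (2.89 times) and *Klf4* (2.07 times) are transcription factors of the bZIP, Myc, homeobox, Krüppel-like and cysteine-serine-rich types.

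**Figure D2:**
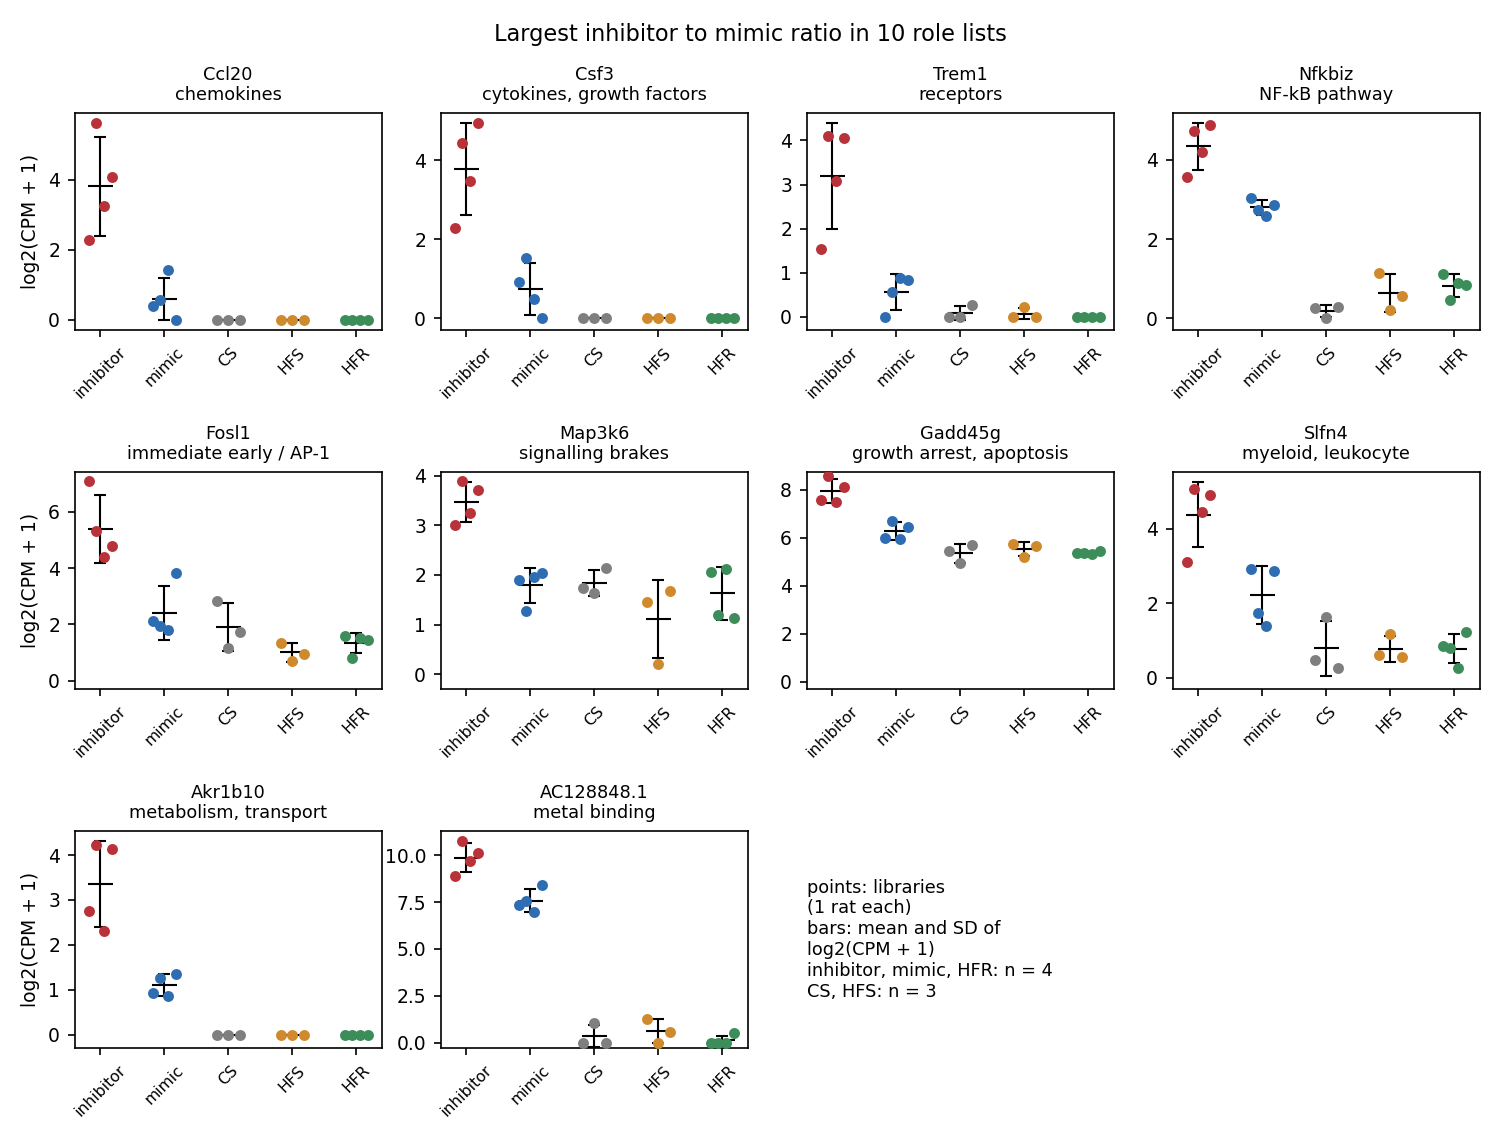
Level in each library, as log2(CPM + 1), of the gene with the largest ratio in each of 10 functional lists, 1 panel per gene, with points for libraries of the inhibitor, mimic, CS, HFS and HFR groups and bars for the mean and SD. In each panel all 4 inhibitor points lie above all 4 mimic points, as the selection required, and the distance between inhibitor points differs from gene to gene.

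The list of signalling brakes and RNA decay, which also holds kinases and other signalling proteins, gave 11 genes with ratios from 2.08 to 4.09 times. *Rgs16*, which speeds the shut-off of G proteins, was at 161, 308, 176 and 219 CPM against 51.5, 85.4, 45.1 and 55.7 CPM (3.63 times). *Zfp36*, tristetraprolin, which binds AU-rich elements and destroys cytokine mRNAs, was at 153, 163, 77.9 and 141 CPM against 39.8, 38.96, 22.3 and 48.6 CPM (3.58 times). *Ptpn1*, the phosphatase that dampens leptin and insulin receptor signalling, was at 44.9, 82.04, 43.9 and 71.7 CPM against 23.5, 27.2, 19.01 and 29.01 CPM (2.46 times). For these 3 genes inhibitor replicate 2 was the highest library of its group. The ubiquitin ligase *Trim47* was at 186, 179, 129 and 161 CPM against 56.4, 81.7, 36.8 and 106 CPM (2.34 times). *Spsb1*, an adaptor with a SOCS box, was at 95.6, 233, 137 and 146 CPM against 73.8, 54.5, 66.5 and 87.04 CPM (2.17 times). *Sgk1*, a kinase induced by glucocorticoids, was one of only 4 genes highest in inhibitor replicate 3, at 105, 109.7, 198 and 146 CPM against 63.9, 72.3, 54.98 and 49.4 CPM (2.32 times). The largest ratio of the list was that of the stress kinase *Map3k6* (4.09 times), and *Socs2*, a suppressor of growth hormone signalling, *Itpkc*, *Rasl11a* and *Marchf3* had ratios of 2.82, 2.68, 3.93 and 2.08 times.

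Growth arrest and apoptosis genes were 6 with ratios from 2.11 to 3.26 times. *Gadd45g* was at 189, 378, 182 and 280.08 CPM against 62.1, 104, 62 and 87.04 CPM (3.26 times), and its relative *Gadd45a* at 95.6, 168, 91.9 and 123 CPM against 61.5, 61.5, 54.1 and 49.4 CPM (2.11 times). Both encode stress sensors that slow the cell cycle. *Ppp1r15a*, which restores translation after stress by directing dephosphorylation of eIF2 alpha, was at 91.7, 93.01, 46.4 and 44.3 CPM against 36.2, 34.7, 24.8 and 28.2 CPM (2.22 times). The cell cycle inhibitor *Cdkn1a* had a ratio of 2.83 times, the cyclin-dependent kinase regulator *Sertad1* 2.13 times and the pro-apoptotic *Pmaip1* 2.56 times.

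Adhesion, matrix and clotting genes were 10, with a lowest ratio of 2.08 times and a median of 3.07. *Tgm2*, a protein-crosslinking transglutaminase, was at 59, 112, 68.4 and 108 CPM against 39.5, 34.7, 46.7 and 46.3 CPM (2.08 times), and fibronectin, *Fn1*, at 50.7, 76.3, 49.4 and 58.8 CPM against 33.5, 23.9, 27.7 and 21.96 CPM (2.20 times). The leukocyte adhesion molecules of activated endothelium were in the set as well: *Icam1* was at 37.8, 95.9, 36.5 and 53.96 CPM against 11.2, 18.3, 14.5 and 18.8 CPM (3.57 times), and P-selectin, *Selp*, at 5.77, 15.7, 12.5 and 9.52 CPM against 2.41, 3.29, 2.07 and 0 CPM (5.61 times). The long pentraxin *Ptx3*, the hyaluronan-binding *Tnfaip6*, *Pdlim7*, *Rai14* and *Tinagl1* had ratios of 5.79, 3.10, 3.04, 2.43 and 2.20 times.

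Genes of myeloid granules and leukocytes were 7, with ratios from 2.84 to 5.32 times. *Lyz2*, the lysozyme of macrophages, monocytes and neutrophils, was at 203, 1035, 379 and 726 CPM against 130.47, 143, 140.13 and 185 CPM (3.91 times). *Srgn*, the proteoglycan core of secretory granules, was at 91.1, 311, 152 and 281 CPM against 65.7, 66.7, 71.9 and 86.3 CPM (2.88 times). The largest ratio was that of *Slfn4* (5.32 times), a schlafen gene of myeloid cells, at 7.70, 32.4, 20.97 and 28.9 CPM against 6.63, 2.35, 1.65 and 6.27 CPM. In these 3 genes inhibitor replicate 1 was the lowest of its group and replicate 2 the highest. *Slfn2*, which restrains T cell activation, was at 47.5, 82.04, 33.95 and 44.4 CPM against 13.3, 11.3, 12.8 and 16.5 CPM (3.86 times). *S100a11*, the neutrophil protease inhibitor *Serpinb1a* and *Pstpip1*, a cytoskeletal adaptor of leukocytes, had ratios of 3.30, 3.68 and 2.84 times.

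Metabolic and transport genes were 8, with ratios from 2.24 to 9.32 times. *Gpd1*, cytosolic glycerol 3-phosphate dehydrogenase, was at 176, 318, 322 and 262 CPM against 133, 110.32, 142 and 95.7 CPM (2.24 times), and uridine phosphorylase, *Upp1*, at 111, 139.75, 114 and 119.71 CPM against 40.4, 45.5, 44.2 and 77.6 CPM (2.33 times). The aldo-keto reductase *Akr1b10* had the largest ratio (9.32 times), at 5.77, 17.6, 3.99 and 16.5 CPM against 0.90, 1.41, 0.83 and 1.57 CPM. *Sphk1*, which makes sphingosine 1-phosphate, the ligand of *S1pr3*, had a ratio of 3.24 times, and *Tmem252*, *Plscr2*, the endothelial early-response gene *Apold1* and the phospholipase *Pla1a* had ratios of 3.65, 3.70, 2.45 and 2.29 times. A gene named only as prostaglandin E synthase in the study's table, the last step towards prostaglandin E2, was at 60.9, 195, 89.4 and 143 CPM against 18.98, 25.4, 19.4 and 25.1 CPM (5.50 times).

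Metallothioneins, cysteine-rich proteins that bind zinc and copper, were represented by AC128848.1, which the study's table describes as metallothionein 1, and *Mt1m*. AC128848.1 was at 475, 1729, 843 and 1114 CPM after the inhibitor and 161, 188, 126 and 340.32 CPM after the mimic (5.11 times). *Mt1m* was at 142, 472, 223 and 238 CPM and 61.8, 69.95, 38.03 and 114 CPM (3.78 times). These genes have near-identical copies, so the share of reads given to each is uncertain. Of the genes without a list, 25 in all, ENSRNOG00000010181 had the largest ratio (24.99 times), at 1.92, 18.1, 9.99 and 19.4 CPM against 1.51, 0.47, 0 and 0 CPM. ENSRNOG00000018752 (14.8 times) and ENSRNOG00000030021 (11.6 times) were also among the 10 largest ratios of the 107. The first of them was at 37.8, 6.68, 2.50 and 3.93 CPM in the inhibitor group, highest in replicate 1, and the second at 3.21, 42.5, 14.5 and 39.3 CPM. The other genes of this group, among them *S100a6* (2.75 times), *Frmpd1* (2.07 times) and *RGD1564664* (2.41 times), had ratios down to 2.05 times.

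The inhibitor libraries did not carry equal shares of these levels. Inhibitor replicate 2 was the highest of its group for 71 genes, replicate 4 for 17, replicate 1 for 15 and replicate 3 for 4, and the lowest library was replicate 1 for 55 genes and replicate 3 for 41. Relative to the mimic mean, the median gene was at 2.30 times in replicate 1, 4.10 times in replicate 2, 2.23 times in replicate 3 and 3.24 times in replicate 4. Levels of 2 or more times the mimic mean were found for 64, 105, 71 and 98 genes in replicates 1 to 4, counts that the selection partly fixed. The highest inhibitor library exceeded the lowest by 1.26 to 17.3 times per gene, with a median of 2.38 times. Within the mimic group, replicate 4 was the highest library for 46 genes, replicate 1 for 24, replicate 2 for 21 and replicate 3 for 16.

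Orders of the inhibitor libraries differed between genes. Replicates 2 and 4 both exceeded replicates 1 and 3 in 67 of the 107 genes, among them 6 of 7 genes of the chemokine list, 6 of 6 NF-kB genes and 7 of 8 metabolic genes. Replicates 1 and 2 both exceeded 3 and 4 in 25 genes, among them 5 of 11 immediate early and AP-1 factors. The shares over all genes at the floor were not computed for these orders, and the selection used the same libraries. Whether the orders are particular to the 107 genes or to any list is therefore not known. The 15 genes highest in replicate 1 included *Fosl1*, *Maff*, *Myc*, *Csrnp1*, *Klf4*, *Hbegf*, *Il11*, *Angpt2* and *Pvr*. Replicate 1 was 2.96 times the next library for *Hbegf*, 2.84 times for *Il11*, 3.06 times for ENSRNOG00000015160 and 5.66 times for ENSRNOG00000018752.

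Markers of blood neutrophils and monocytes followed the first of these orders. Of 12 listed markers 5 had an identifier, and *Lyz2* is itself 1 of the 107. Identifiers came from the study's gene tables, made from these samples. The difference of these 5 between inhibitor and mimic is therefore not independent evidence, and the other markers could not be followed. *S100a8*, a granule protein of neutrophils, was at 4.49, 67.3, 28.0 and 65.2 CPM in inhibitor replicates 1 to 4 and at 6.93, 1.88, 2.89 and 1.57 CPM in mimic replicates 1 to 4. The decoy receptor *Il1r2* was at 1.92, 69.2, 25.0 and 52.3 CPM against 3.01, 3.29, 2.89 and 2.35 CPM, and *Mcemp1* at 0.64, 29.1, 8.49 and 20.3 CPM against 1.21, 0, 1.65 and 1.57 CPM. In inhibitor replicate 1 these 3 markers were thus within or below the range of the mimic group, while replicates 2 and 4 were the highest of all 8 libraries. *Cd14*, shared with microglia, was at 19.2, 81.6, 52.4 and 71.5 CPM against 14.8, 21.6, 13.6 and 20.4 CPM. The 5 markers summed to 229 to 1282 CPM in the inhibitor group, 156 to 210.9 CPM in the mimic group and 49.5 to 158 CPM in the DIO groups.

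Other cell types were followed in the same way, with the same limit on their markers. Microglial markers (4 of 11 with an identifier) summed to 370 to 748 CPM after the inhibitor and 303 to 441 CPM after the mimic, so the groups overlapped. Neuronal markers (6 of 8) summed to 1867 to 2755 CPM and 2440 to 3533 CPM. The only endothelial marker with an identifier, *Slco1c1*, a thyroid hormone carrier of brain vessels, was at 21.0 to 31.4 CPM after the inhibitor and 48.4 to 64.8 CPM after the mimic, which is the opposite direction to the 107 genes. The part of any of these cell types in the levels of the 107 genes was not tested.

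**Figure D3:**
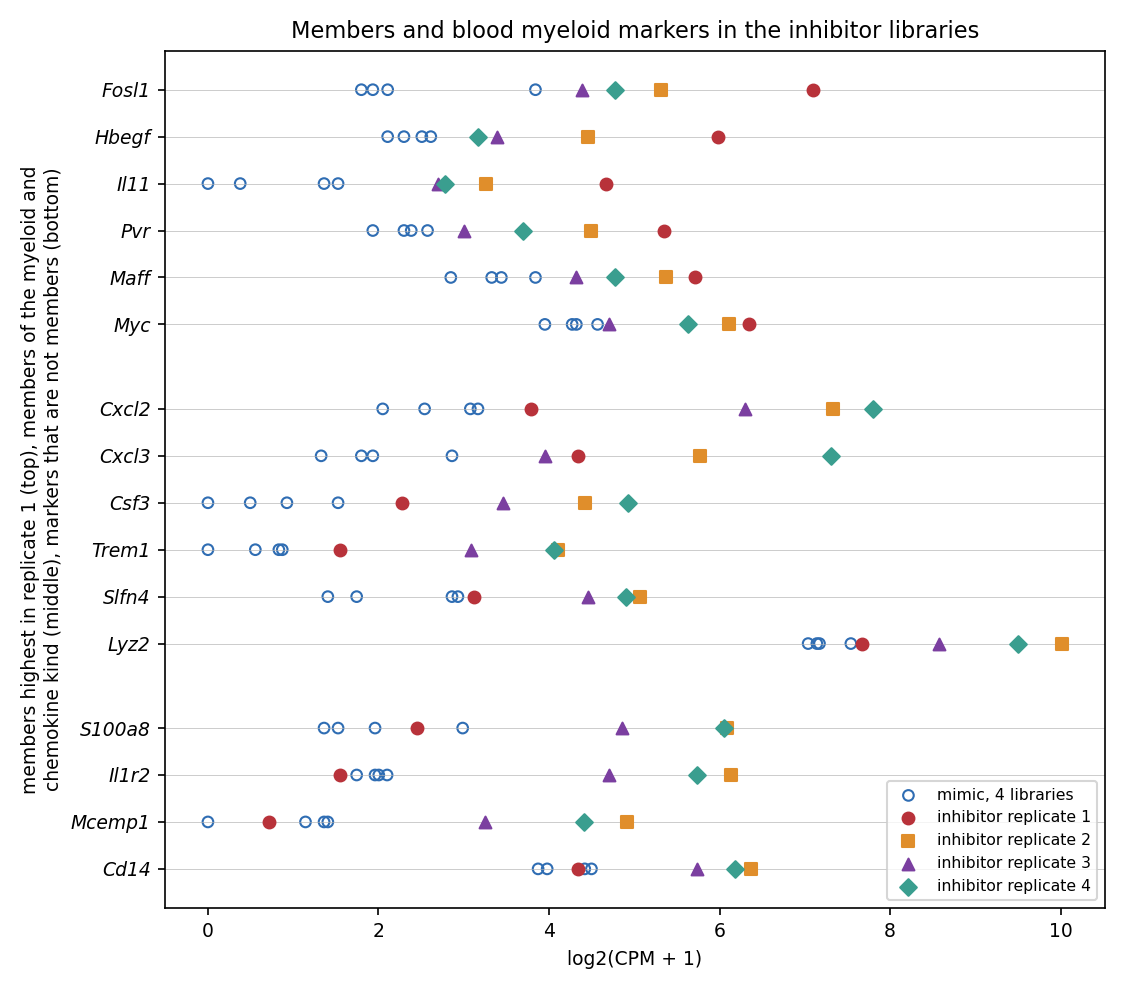
Level as log2(CPM + 1) in inhibitor replicates 1 to 4, each as a marked point, and in the 4 mimic libraries, for 6 genes high in inhibitor replicate 1 (*Fosl1*, *Hbegf*, *Il11*, *Pvr*, *Maff*, *Myc*), 6 genes with replicate 1 low (*Cxcl2*, *Cxcl3*, *Csf3*, *Trem1*, *Slfn4*, *Lyz2*) and the blood cell markers *S100a8*, *Il1r2*, *Mcemp1* and *Cd14*. In the markers and in the second set of genes, replicates 2 and 4 both lie above replicates 1 and 3. The highest library is replicate 4 for *Cxcl2*, *Cxcl3* and *Csf3* and replicate 2 for the others. *S100a8* was at 4.49 CPM in replicate 1 and 67.3 CPM in replicate 2. The genes shown were picked, so this likeness is partly built in.

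Levels in uninjected rats place the mimic group. The experiments differed in RNA kit and surgery, only the infused rats are stated to have been fasted, and these cannot be told apart from the infusion. Every inhibitor library was above every DIO library for 89 of the 107 genes and for 22.2% of the 8095 genes at the floor, but the selection required high inhibitor libraries, so nothing is read from this count. Every mimic library was above every DIO library for 34 of the 107 (20.5% of the 8095), every mimic library was below for 1 (11.3% of the 8095), and for 72 the mimic and DIO libraries overlapped. The 1 gene was *Pdlim7*, a cytoskeletal adaptor, at 2.11, 3.76, 4.96 and 3.92 CPM in the mimic group and 12.6 to 28.6 CPM in the DIO libraries. The mimic mean exceeded the DIO mean for 88 genes and the inhibitor mean did so for 106. The share of all genes at the floor was not computed for these 2 counts, and the selection partly fixed the second. Nothing is read from them.

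Most of the chemokines were low in the uninjected arcuate nucleus. *Cxcl1* was at 0, 0 and 0 CPM in CS, 0, 0 and 0.16 CPM in HFS and 0, 0, 0 and 0.13 CPM in HFR. *Ccl2* was at 0, 0 and 0 CPM, 0.35, 0 and 0.32 CPM and 0.20, 0, 0 and 0 CPM in the same order. *Ccl3* reached 2.08 CPM in 1 library, at 0.58, 0.53 and 0.21 CPM in CS, 2.08, 0.16 and 1.42 CPM in HFS and 0.20, 0, 0.63 and 0.40 CPM in HFR. *Ccrl2* was detected in all 10 libraries, at 0.53 to 2.06 CPM, and its DIO mean of 1.08 CPM was above its mimic mean of 0.98 CPM. *Ccl20*, *Csf3* and *Akr1b10* had no count in any of the 10 DIO libraries, which allows a level of up to 0.0530 CPM for each (3 counts over the 56582843 counts of these libraries; this limit covers counting error only). Altogether 21 of the 107 genes had a DIO mean under 1 CPM. Every mimic library was above every DIO library for 5 of 7 genes of the chemokine list, 5 of 11 of the signalling brake list, 3 of 10 adhesion genes and 0 of 6 receptors. The other lists had 3 of 8 cytokines and growth factors, 2 of 6 NF-kB genes, 2 of 11 immediate early and AP-1 factors and 2 of 6 growth arrest genes. They also had 2 of 7 myeloid, 3 of 8 metabolic and 1 of 2 metal-binding genes. The share of all 8095 genes at the floor was 20.5%, and with so few genes per list no difference between lists is read from these counts. AC128848.1 was at 0 to 1.39 CPM in the DIO libraries, against 161, 188, 126 and 340.32 CPM in the mimic group, whereas *Mt1m* was at 22.9, 47.9 and 11.5 CPM in CS, 74.7, 49.4 and 39.5 CPM in HFS and 12.1, 32.8, 40.2 and 25.2 CPM in HFR. Correction for molecular identifiers is marked only on the infusion files, and 23 genes in all had a mimic mean of 100 CPM or more with a DIO mean under 1 CPM, so for AC128848.1 a difference in level and one in counting cannot be told apart.

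**Figure D4:**
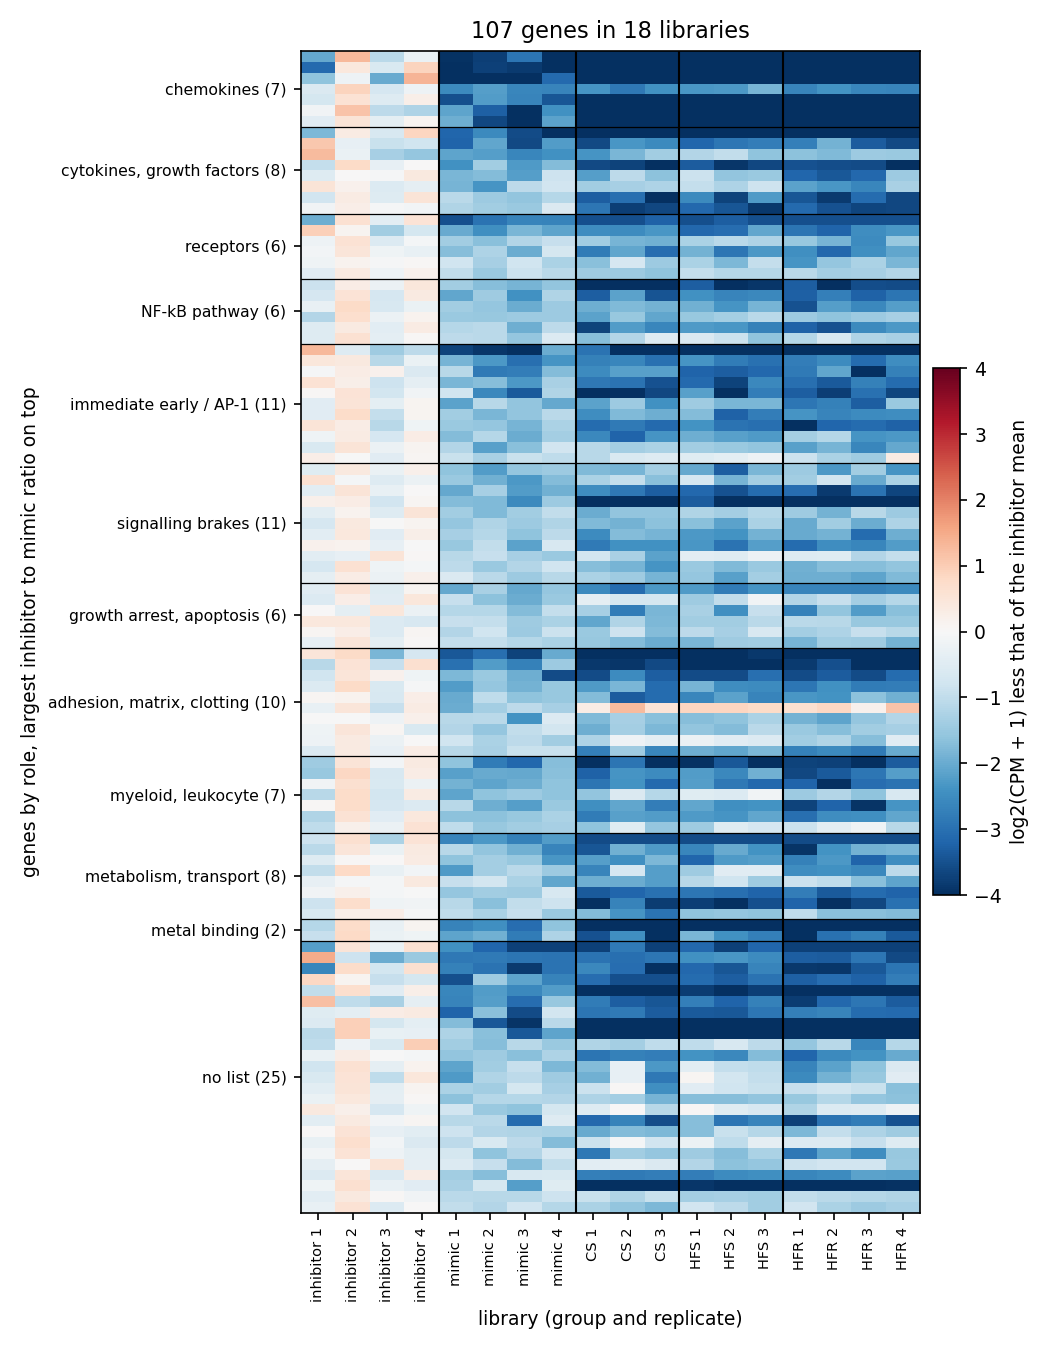
Heat map of the 107 genes (rows, grouped by functional list) in 18 libraries (columns, by group), coloured by log2(CPM + 1) minus log2 of the inhibitor mean plus 1. The 4 mimic columns are lower than the inhibitor columns in every row by selection, and inhibitor replicate 2 has the highest level of its group in 71 rows. The mean of the 10 uninjected columns is below the mimic mean in 88 rows, for which no share over other genes was computed.

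Other genes of the same functional lists, not among the 107, were tested between mimic and inhibitor. Identifiers came from the study's own gene tables, which were made from these samples. Neither the direction of these genes nor the number that passed is therefore independent evidence. The shares over all genes are given for scale only. Of 43 such genes, 31 passed the count filter, and 4 were lower after the mimic at an adjusted p under 0.05 by edgeR, against 0.436% of all 9625 genes tested. With the replicate number as a block 8 of the 31 were lower (0.519% of all genes), and DESeq2 gave 33 of 43 (0.998% of 19247 genes). By edgeR without the block none was higher (0.0104% of all 9625 genes), and 27 did not pass, with fitted log2 fold changes (mimic over inhibitor) from -3.73 to -0.64. All 31 fitted values were below 0.

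The 4 genes stand in different lists. *Tnfrsf1a*, a receptor for tumour necrosis factor, was at 63.5, 89.2, 66.4 and 78.9 CPM after the inhibitor and 33.5, 42.3, 33.5 and 49.4 CPM after the mimic (log2 fold change -0.93, SE 0.17, edgeR adjusted p = 0.038). *Jun*, the partner of Fos in AP-1, was at 217, 179, 143 and 181 CPM against 100.04, 104, 78.1 and 118 CPM (-0.85, SE 0.15, edgeR adjusted p = 0.0377). *Pfkfb3*, which promotes glycolysis, was at 94.9, 148, 94.4 and 124 CPM against 70.2, 62.9, 55.4 and 58.0 CPM (-0.90, edgeR adjusted p = 0.0377). *Ccn1*, a matricellular protein, was at 8.98, 9.06, 6.99 and 13.3 CPM against 1.81, 0.47, 0.41 and 1.57 CPM (-3.14, edgeR adjusted p = 0.0286). The count of 4 depended on single libraries: it was 0 without mimic replicate 1, 2 or 3 or inhibitor replicate 4, 1 without mimic replicate 4 or inhibitor replicate 2, 12 without inhibitor replicate 3 and 13 without inhibitor replicate 1. *Il1b*, interleukin 1 beta, had a fitted log2 fold change of -3.73 (SE 0.92, edgeR adjusted p = 0.221), and the NF-kB subunit *Rela* one of -0.64 (SE 0.19, edgeR adjusted p = 0.231).

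The DIO experiment gave libraries that had no part in choosing the genes, and asked whether the set differed with diet or running. Of the 107 genes 84 passed the count filter of the edgeR fit, and no chemokine did. At an adjusted p under 0.1, edgeR called 0 of the 84 in HFS over CS (0.00841% of all 11892 genes tested), 0 in HFR over CS (0.0168%) and 0 in HFR over HFS (0%). DESeq2 called 0 of 104 in each (0.0103%, 0.0877% and 0% of all 19395 genes). The adjusted p values of edgeR lay between 0.989 and 0.999. The p values here measure the spread between single rats within 3 groups of 3 or 4.

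Between HFS and CS, 11 of the 84 genes were higher at an unadjusted p under 0.05 (2.60% of all genes) and 2 were lower (1.88%). A fitted log2 fold change above 0 was found for 67 of the 84 (50.4% of all genes), with a median of 0.28 against 0 for all genes. *Sgk1* was at 84, 55.7 and 30.6 CPM in CS and 103, 100.27 and 120.2 CPM in HFS, with no overlap (log2 fold change 0.96, SE 0.29, unadjusted p = 0.00537, edgeR adjusted p = 0.994). *Apold1* was at 3.49, 3.37 and 2.78 CPM and 7.11, 8.94 and 5.54 CPM, also without overlap (1.18, SE 0.42, unadjusted p = 0.0124, edgeR adjusted p = 0.994). ENSRNOG00000014483 had the smallest p of the 84 and the opposite direction, at 9.70, 9.94 and 8.55 CPM in CS and 5.37, 3.61 and 3.95 CPM in HFS (-1.10, SE 0.33, unadjusted p = 0.00462, edgeR adjusted p = 0.994). None of these passed the adjusted threshold. Among the genes tested in each list, 8 of 8 adhesion genes (median 0.17), 6 of 6 myeloid genes (median 0.27) and 7 of 11 immediate early and AP-1 factors (median 0.09) had values above 0.

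Without CS replicate 2 and HFS replicate 2, the values between HFS and CS were larger. The median over the 84 genes was 0.52, 70 were above 0 (49.6% of all genes), and 18 were higher at an unadjusted p under 0.05 (5.41% of all genes), but edgeR again called 0, with adjusted p from 0.514 to 0.998. Prostaglandin E synthase had the smallest p (log2 fold change 2.16, SE 0.60, unadjusted p = 0.0031, edgeR adjusted p = 0.514). Over all libraries it was at 2.52, 4.79 and 1.07 CPM in CS, 7.80, 4.86 and 8.07 CPM in HFS and 2.19, 5.59, 4.42 and 6.27 CPM in HFR. *Lrg1* was at 5.82, 7.28 and 2.99 CPM in CS, 10.4, 4.08 and 12.8 CPM in HFS and 5.17, 3.73, 6.94 and 4.40 CPM in HFR, and HFS replicate 2 lay far below the other HFS libraries. *Sgk1* was at 1.01 (SE 0.40, unadjusted p = 0.0313, edgeR adjusted p = 0.568) in this fit. *Apold1* (1.04, unadjusted p = 0.0799) and ENSRNOG00000014483 (-0.93, unadjusted p = 0.0482) kept their sign. Values above 0 were found for 7 of 8 adhesion genes (median 0.43), 6 of 6 myeloid genes (median 0.64) and 8 of 11 immediate early and AP-1 factors (median 0.40).

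Sums of markers of several cell types also had higher medians in HFS than in CS, and the sum for neurons had a lower one. Only markers named in the study's gene tables, made from these samples, could be followed, so their direction is not independent evidence. Microglial markers summed to 276 to 424 CPM in CS and 393 to 522 CPM in HFS, and astrocyte markers to 1252 to 2217 CPM and 1842 to 3598 CPM. Of the astrocyte markers, *Gfap* was at 526, 1342 and 468 CPM in CS and 2664, 1015 and 1883 CPM in HFS. *Gpr37l1* differed little, at 768, 708 and 708 CPM and 799, 678 and 884 CPM. Oligodendrocyte markers summed to 7837 to 12149 CPM and 11783 to 18052 CPM. Markers of fibroblasts and meninges lay at 92.5 to 315 CPM (median 97.6) in CS and 221 to 303 CPM (median 260.8) in HFS, and those of blood neutrophils and monocytes at 66.7 to 119 CPM and 102 to 158 CPM. The blood cell sum was mostly *Lyz2*, itself among the 84 genes, so it is no separate measure of these cells. *Lyz2* was at 61.5, 113 and 101 CPM in CS and 125, 96.2 and 153 CPM in HFS. In each of these 5 lists the groups overlapped over all libraries. Without CS replicate 2 and HFS replicate 2 they did not: the highest CS and lowest HFS sums were 304.9 and 440.9 CPM for microglia, 1386 and 2953 CPM for astrocytes, 9362 and 11783 CPM for oligodendrocytes, 97.6 and 260.8 CPM for fibroblasts and meninges, and 103.6 and 129 CPM for the blood cells. Neuronal markers went the other way, at 1337 to 2695.5 CPM (median 2271) in CS and 1568.5 to 2045 CPM (median 1764) in HFS. Without those 2 libraries the neuronal sums were 2271 to 2695.5 CPM in CS and 1568.5 to 1764 CPM in HFS. Sums for arcuate neurons and tanycytes and the endothelial marker overlapped over all libraries. Without those 2, arcuate neuron and tanycyte sums were higher in HFS and the endothelial marker still overlapped. Both libraries left out matched no column of the study's table, so the remaining ones may have chosen the markers. Nothing is read from this separation. The part of these cell types in the values of the 84 genes was not tested.

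The running group was compared with both sedentary groups, so these comparisons share libraries with the first and with each other. Against CS, 3 of the 84 genes were higher in HFR at an unadjusted p under 0.05 (1.93% of all genes), 3 were lower (2.35%), and 34 had a value above 0 (48.3%), with a median of -0.08 (all genes -0.01). *Fos* was at 34.3, 21.8 and 39.95 CPM in CS, 53.2, 45.97 and 42.4 CPM in HFS and 80.5, 93.9, 39.8 and 41.6 CPM in HFR, so that HFR replicates 1 and 2 stood above 3 and 4 (HFR over CS 1.02, SE 0.30, unadjusted p = 0.00542, edgeR adjusted p = 0.995). *Gpd1* was at 79.5, 51.5 and 33.8 CPM in CS and 133, 84, 84.6 and 80.6 CPM in HFR, without overlap (0.83, SE 0.24, unadjusted p = 0.00461, edgeR adjusted p = 0.995). *Hlx*, a homeobox factor, was at 6.01, 4.97 and 5.34 CPM in CS and 2.39, 3.17, 1.47 and 2.67 CPM in HFR (-1.13, SE 0.37, unadjusted p = 0.00778, edgeR adjusted p = 0.995). These 3 had the smallest p of the comparison and none passed the adjusted threshold. Without CS replicate 2 and HFS replicate 2 the median was 0.18, on the other side of 0, with 50 of 84 values above 0 (50.9% of all genes). In that fit *Fos* was at 0.82 (unadjusted p = 0.0407), *Gpd1* at 0.80 (unadjusted p = 0.0293) and *Hlx* at -1.17 (unadjusted p = 0.0206).

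Against HFS, 0 of the 84 genes were higher in HFR at an unadjusted p under 0.05 (1.67% of all genes), 8 were lower (2.56%), and 15 had a value above 0 (48.6%), with a median of -0.24 (all genes -0.01). *Angpt2* was at 5.37, 4.24 and 6.01 CPM in HFS and 1.79, 1.49, 1.05 and 4.00 CPM in HFR, without overlap (-1.27, SE 0.45, unadjusted p = 0.0124, edgeR adjusted p = 0.989). *Serpinb1a* was at 11.4, 10.8 and 14.9 CPM and 5.37, 6.71, 4.63 and 10.01 CPM (-0.87, SE 0.34, unadjusted p = 0.0191, edgeR adjusted p = 0.989), and ENSRNOG00000036942 at 11.1, 4.24 and 5.38 CPM and 1.99, 4.10, 4.63 and 2.54 CPM (-1.06, SE 0.44, unadjusted p = 0.0278, edgeR adjusted p = 0.989). The other 5 genes under an unadjusted p of 0.05 were *Adm*, *Fn1*, *Hlx*, *Sphk1* and *S100a11*. Among the genes tested in each list, 0 of 5 NF-kB genes, 0 of 6 cytokines and growth factors and 4 of 11 immediate early and AP-1 factors had values above 0. Without CS replicate 2 and HFS replicate 2 the median over the 84 was -0.33, with 14 values above 0 (50.8% of all genes). In the same fit *Angpt2* was at -1.38 (unadjusted p = 0.0208), *Serpinb1a* at -0.95 (unadjusted p = 0.0209) and ENSRNOG00000036942 at -1.31 (unadjusted p = 0.0142), and values above 0 were left for 0 of 5 NF-kB genes, 1 of 6 cytokines and growth factors and 3 of 11 immediate early and AP-1 factors. Markers of microglia summed to 393 to 522 CPM in HFS and 298 to 395 CPM in HFR, those of blood neutrophils and monocytes to 102 to 158 CPM (median 129) and 49.5 to 131 CPM (median 71.0), and those of fibroblasts and meninges to 221 to 303 CPM (median 260.8) and 66.2 to 229 CPM (median 117). Without HFS replicate 2 the lowest HFS sums were 440.9, 129 and 260.8 CPM in the same order. Neuronal markers went the other way, at 1568.5 to 2045 CPM (median 1764) in HFS and 1854 to 2251 CPM (median 1985.5) in HFR. These sums carry the limits given above for HFS over CS, and the blood cell sum was again mostly *Lyz2*. The part of these cell types was not tested.

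**Figure D5:**
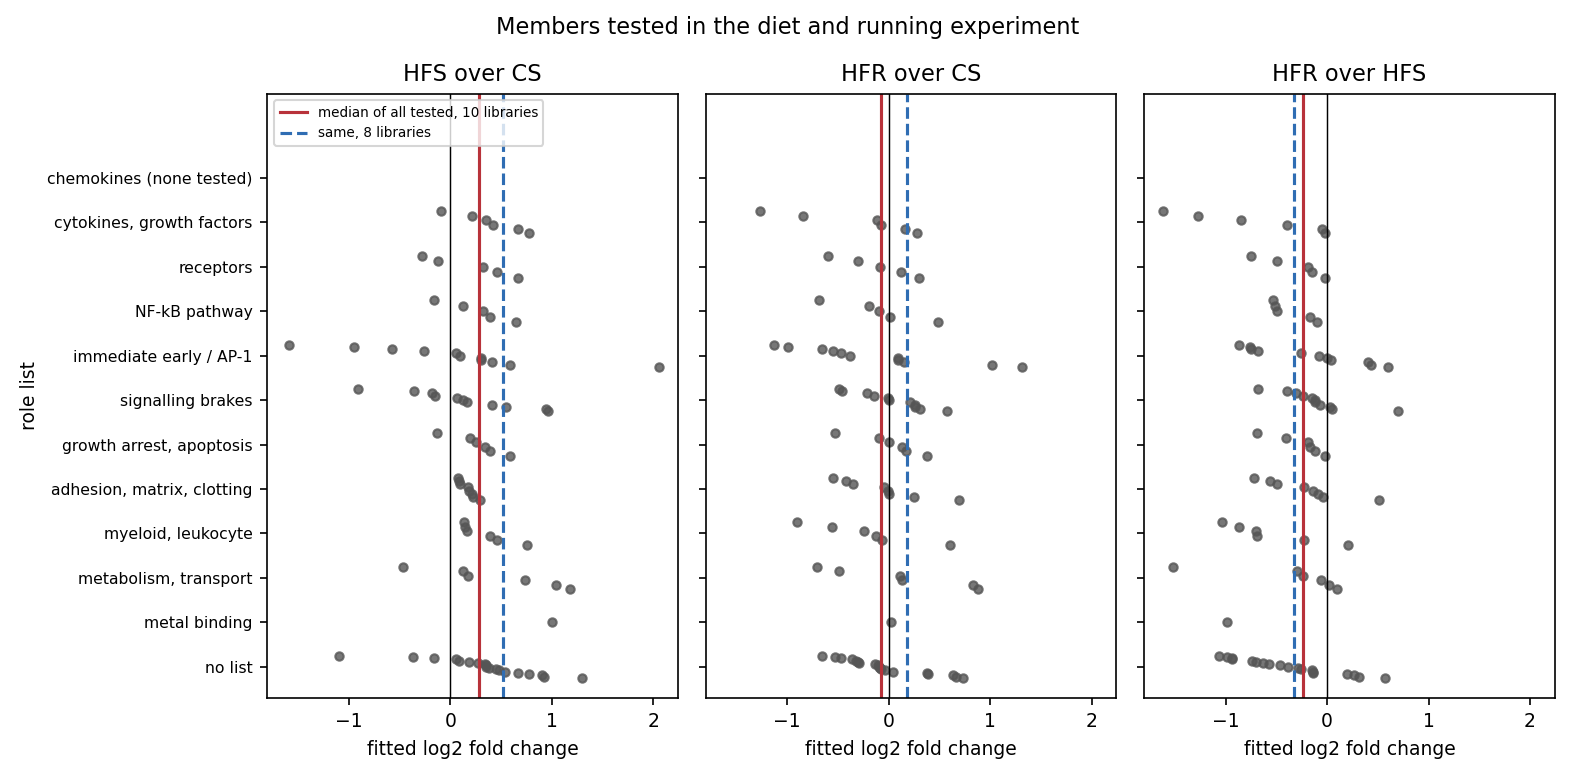
Fitted log2 fold change (x axis) of the 84 genes tested in the DIO experiment, 1 point per gene, by functional list (y axis), in 3 panels for HFS over CS, HFR over CS and HFR over HFS, with lines at the median of the 84 for all 10 libraries (solid) and without CS replicate 2 and HFS replicate 2 (dashed). The solid medians are 0.28, -0.08 and -0.24 and the dashed ones 0.52, 0.18 and -0.33; no point passed an adjusted p of 0.1.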

How the data were processed

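Per the labels and the study's methods, arcuate nucleus punches of single rats were sequenced by bulk MARS-seq, and the authors deposited raw counts per Ensembl gene (Rnor6) made with Cutadapt, STAR 2.7.9a, SAMtools duplicate removal and HTSeq 0.13.5 without regard to strand, with replicates kept apart. Names of the infusion files mark their counts as corrected for molecular identifiers, which is not given for the DIO files in the sources used here. Reads of a gene and an antisense or near-identical partner cannot be told apart. HTSeq's lines for reads assigned to no gene, held in the DIO files (22.4% to 26.3% of reads without a feature and 17.2% to 20.6% aligned to several places), were left out of totals.

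CPM were computed from these deposited counts in Python 3.11.15 with pandas 2.3.3. Tests used edgeR 4.0.16 (quasi-likelihood, TMM, filterByExpr, Benjamini-Hochberg over all genes) in R 4.3.3, with 10 DIO libraries in 1 fit (11892 genes) and 8 infusion libraries in another (9625 genes), and DESeq2 1.42.0 as an alternative. Common biological variation was 0.234 and 0.205. Scripts were tested on simulated data. Replicates are single rats, numbered within groups with no stated pairing. Correlations of same-numbered libraries ran from -0.12 to 0.21 and those of differently numbered ones from -0.29 to 0.22. These few values cannot decide whether the numbers pair rats. The main fits used no pairing, and fits with the replicate number as a block are given as an alternative.

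Members and functional lists were chosen with earlier results of these data known. Named genes were, per list, the 3 with the highest inhibitor mean and the one with the largest ratio, the 10 largest ratios over all, the 3 smallest p values of each DIO comparison and the 3 genes on each side of each threshold. Some results for single genes are not reported here. Other list members are given by their ratio, and the per-library values of *Zfp36*, *Ptpn1*, *Icam1*, *Selp* and prostaglandin E synthase, the genes highest in inhibitor replicate 1, and *Il1b* and *Rela* were added after values were seen. Symbols came from the study's gene tables, matched by Ensembl identifier. No genome of this build was used, so no sequence or position is given. The negative-control and chow-running groups are not analysed here. Alternatives covered the selection thresholds, scaling (TMM, RLE), count filters, the replicate block, DESeq2 and each library left out in turn.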

Additional observations from a re-analysis of the deposited data

Results flagged for a closer look

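Among the named genes, the lowest or highest library of a group of 4 stood apart by Dixon's criterion in 11 of 180 values, and chance gives about 1 in 20. No explanation was tested for these libraries.

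In the inhibitor group, replicate 1 stood above the other 3 for *Fosl1* (135.97 CPM), *Il11* (24.37 CPM) and ENSRNOG00000018752 (37.84 CPM). In the mimic group, replicate 4 stood above the others for *Fosl1* (13.33 CPM) and for uridine phosphorylase, *Upp1* (77.63 CPM). Among the running rats, *Gpd1* was highest in HFR replicate 1 (133.37 CPM), *Ccrl2* in HFR replicate 2 (1.12 CPM), and ENSRNOG00000014483 was lowest in HFR replicate 4 (4.14 CPM). The remaining values are single libraries with 1 to 3 counts where the others of the group had none: *Ccl2* in HFR replicate 1 (0.2 CPM), *Cxcl1* in HFR replicate 4 (0.13 CPM) and AC128848.1 in HFR replicate 4 (0.4 CPM). Over all 107 genes the criterion was met 4 times in the inhibitor group, 6 times in the mimic group and 11 times in the HFR group.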

How the results depend on the processing

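The number of genes selected was 107 as reported, 109 with TMM or with RLE scaling (106 shared with the 107 in either case) and 129 at a floor of 5 CPM. It was 71 at a floor of 20 CPM, 57 when the mimic mean had to be at most 1/3 of the inhibitor mean and 189 when libraries could overlap. Leaving out 1 library gave 83 to 157 genes, and the lowest, without inhibitor replicate 2, shared 80 with the 107. As a replicate block, with the mimic at most 0.5 times the inhibitor in each same-numbered pair, 46 genes met the limit, 40 of them among the 107; with the block in the fits, 8 of the 31 other list genes passed between mimic and inhibitor (4 without it), and the DIO medians were 0.31, -0.12 and -0.36. The replicate block changed no other call. DESeq2 called 33 of 43 other list genes, and leaving out 1 library gave 0 to 13.

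In the DIO experiment edgeR called 0 of the members tested (79 to 85 with a count filter, 104 with none) in each comparison under the alternatives tried. The median log2 fold change was 0.52 for HFS over CS and 0.18 for HFR over CS without CS replicate 2 and HFS replicate 2. Leaving out 1 library gave 0.18 to 0.42 for HFS over CS, -0.14 to 0.18 for HFR over CS (0.18 without CS replicate 2 and 0.03 without HFR replicate 1, which turn its sign) and -0.33 to -0.18 for HFR over HFS. The count of 34 genes with every mimic library above every DIO library was 36 to 43 in alternatives chosen after seeing the data. The ratio of ENSRNOG00000010181 was 78.9 without mimic replicate 1, and 589 other ratios moved by less than 1 SD. The causes of these shifts were not tested. Depth in the infused libraries, where 1 count is 0.15 to 0.78 CPM, limits the ratios of genes with low mimic means.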
